A study of Homo sapiens with 6 samples.

Results

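The genes described here are YAP1 and WWTR1, TEAD1, the kinase gene LATS2, the angiomotin-like genes AMOTL1 and AMOTL2, and the target genes CTGF, CYR61, ANKRD1 and AXL. They were chosen by symbol, and all 10 were matched to a row among the 57820 annotated genes of the deposited table, under the older symbols CTGF and CYR61 (now CCN2 and CCN1). All 10 were among the 14889 genes tested, those whose normalised count averaged 10 or more over the libraries. The samples were U2OS cells, an established human osteosarcoma line, treated for 4 h with 5 µM NMS-873, an allosteric inhibitor of the ATPase VCP, or with 0.05% DMSO, the solvent that NMS-873 was dissolved in. There were 3 libraries of polyadenylated RNA per treatment, numbered as replicates 1 to 3. The comparison asked how transcripts respond to VCP inhibition. Whether replicates were grown as separate cultures is not stated in the labels, and the p-values therefore cover the differences among these libraries, which could be technical.

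YAP1 and its paralogue TAZ (encoded by WWTR1) are transcriptional coactivators without a DNA-binding domain of their own. They reach chromatin through the TEAD factors. The Hippo kinases, ending with LATS1 and LATS2, phosphorylate YAP and TAZ and so hold them in the cytoplasm or mark them for degradation, and angiomotins bind them outside the nucleus. CTGF, CYR61 and ANKRD1 are the genes most used as readouts of YAP and TAZ activity, and LATS2 and AMOTL2 are targets that feed back on the pathway. RNA levels of YAP1 and WWTR1 do not report the amount, location or phosphorylation of the proteins.

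Libraries held 21132311 to 22488952 reads in genes, and the deposited values were scaled to spike-in RNA, synthetic transcripts added to each sample. On that scale the median of all genes tested was at -0.10 (log2 fold change, NMS-873 over DMSO). With NMS-873, 2217 genes were called higher and 4910 lower at an adjusted p under 0.05, a split that became 3760 and 3108 when libraries were scaled to the genes by the median of ratios, and 3083 and 4113 after quantile normalisation. Replicate 1 of NMS-873 stood somewhat apart. Its reads differed from those of the other NMS-873 libraries with a chi-square per degree of freedom of 7.35 and 7.80, against 1.78 between replicates 2 and 3 of NMS-873 and 1.53 to 3.62 among the DMSO libraries. The mesenchymal markers COL1A1 (167 FPKM with NMS-873 and 225 FPKM with DMSO) and VIM (383 FPKM with NMS-873 and 439 FPKM with DMSO) were high, while COL1A2 was near 0 (0.0357 FPKM with NMS-873 and 0.0450 FPKM with DMSO). Of the bone lineage markers, ALPL (4.16 FPKM with NMS-873 and 4.81 FPKM with DMSO), SPP1 (5.13 FPKM with NMS-873 and 5.76 FPKM with DMSO) and RUNX2 (0.656 FPKM with NMS-873 and 1.27 FPKM with DMSO) were low but present, and SP7, IBSP and BGLAP were at or near 0. RUNX2 fell, with a log2 fold change of -0.95 (limma adjusted p = 4.24e-16). COL1A1, VIM and ALPL were also called lower, at -0.43, -0.20 and -0.20 (limma adjusted p = 3.79e-08, 0.015 and 0.0413). The ALPL libraries overlapped between treatments, and SPP1 did not pass (limma adjusted p = 0.112). Of the epithelial markers KRT18 was high (122 FPKM with NMS-873 and 119 FPKM with DMSO), and EPCAM, CDH1 and KRT19 were at 1.34, 0.254 and 0.0326 FPKM with NMS-873 and at 1.40, 0.252 and 0.0385 FPKM with DMSO. PTPRC and CD3E, markers of blood cells, were at 0.0414 and 0 FPKM with NMS-873 and at 0.0716 and 0 FPKM with DMSO.

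TEAD factors bind the hexamer GGAATG, read CATTCC on the other strand. Promoters of 8 of the 10 genes were matched in RefSeq (build GRCh38.p14), with 11 start sites in all. None was matched for CYR61 and TEAD1, so their windows were not searched. The 250 bases before the start are shown for CTGF and ANKRD1, targets that were higher with NMS-873, and for 1 start site of AMOTL2, a target that was lower, since all of them hold the hexamer. Sequences run 5′ to 3′ on the gene's strand, and capitals mark GGAATG or CATTCC.
CTGF, chr6:131951373-131951622, minus strand: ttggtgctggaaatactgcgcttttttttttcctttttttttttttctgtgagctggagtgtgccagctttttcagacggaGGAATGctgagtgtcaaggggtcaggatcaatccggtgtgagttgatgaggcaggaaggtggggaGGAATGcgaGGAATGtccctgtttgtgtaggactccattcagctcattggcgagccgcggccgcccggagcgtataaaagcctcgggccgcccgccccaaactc
ANKRD1, chr10:90921088-90921337, minus strand: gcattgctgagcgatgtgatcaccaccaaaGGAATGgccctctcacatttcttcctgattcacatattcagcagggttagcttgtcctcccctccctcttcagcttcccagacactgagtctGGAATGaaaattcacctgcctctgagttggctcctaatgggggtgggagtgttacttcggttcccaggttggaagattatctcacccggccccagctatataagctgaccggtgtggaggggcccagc
AMOTL2, chr3:134374448-134374697, minus strand: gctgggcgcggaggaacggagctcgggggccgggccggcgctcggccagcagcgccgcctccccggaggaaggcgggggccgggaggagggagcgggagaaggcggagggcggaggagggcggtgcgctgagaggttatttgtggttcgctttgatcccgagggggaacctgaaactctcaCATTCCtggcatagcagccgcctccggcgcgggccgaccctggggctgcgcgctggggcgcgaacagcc
CTGF held 3 copies of GGAATG, which began 169, 104 and 95 bases before the start. ANKRD1 held 2 copies, which began 220 and 128 bases before the start. It also held 1 match to TGANTCA, a loose form of the AP-1 motif in which N is any base. That match read TGATTCA and began 195 bases before the start. AMOTL2 held 1 copy, on the opposite strand, 69 bases before the start. The hexamer also stood in the window of YAP1 and in that of 1 start site of AXL, both lower with NMS-873. It was absent from the windows of LATS2, which was higher, and of WWTR1 and AMOTL1, which were lower. In all, 5 of the 11 windows held it, against 11.9% of 35116 promoter windows of the same length. The genes were chosen as YAP/TEAD factors and targets, so this share is no test of the set. WWTR1, AMOTL2 and AXL each gave more than 1 window. TGATGNAA, a motif of ATF4 and C/EBP factors, stood in 0 of the 11 windows, against 3.14% of all, and TGANTCA in 1 of 11, against 6.57%. With only 11 windows, the counts of these 2 motifs cannot be told apart from the shares of all promoters. Both strands were searched for each motif, and a match describes letters only.

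After NMS-873 the genes moved in both directions. ANKRD1, CYR61, CTGF and LATS2 rose, YAP1, WWTR1, AMOTL1, AMOTL2 and AXL fell, and TEAD1 did not pass the test. In numbers, 4 of 10 were called higher and 5 lower, against 14.9% and 33.0% of all genes tested, so 9 of 10 were called in either direction against 47.9%. The genes were chosen with earlier results of these data known, so these shares are no test of the set. The NMS-873 and DMSO libraries did not overlap for 9 of 10 genes, against 53.6% of all genes tested; NMS-873 was above for 4 and below for 5, against 16.4% and 37.2%. All 10 genes are well expressed, and among the 4764 genes that averaged 1000 normalised counts or more, a limit chosen after the data were seen, 53.1% were called, 20.6% higher and 32.5% lower. The median log2 fold change over the 10 genes was -0.13, close to that of all genes, while single genes ran between -0.43 (YAP1) and 1.53 (ANKRD1). In bulk RNA, fewer cells that express a gene and less RNA per cell cannot be told apart.

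**Figure D1:**
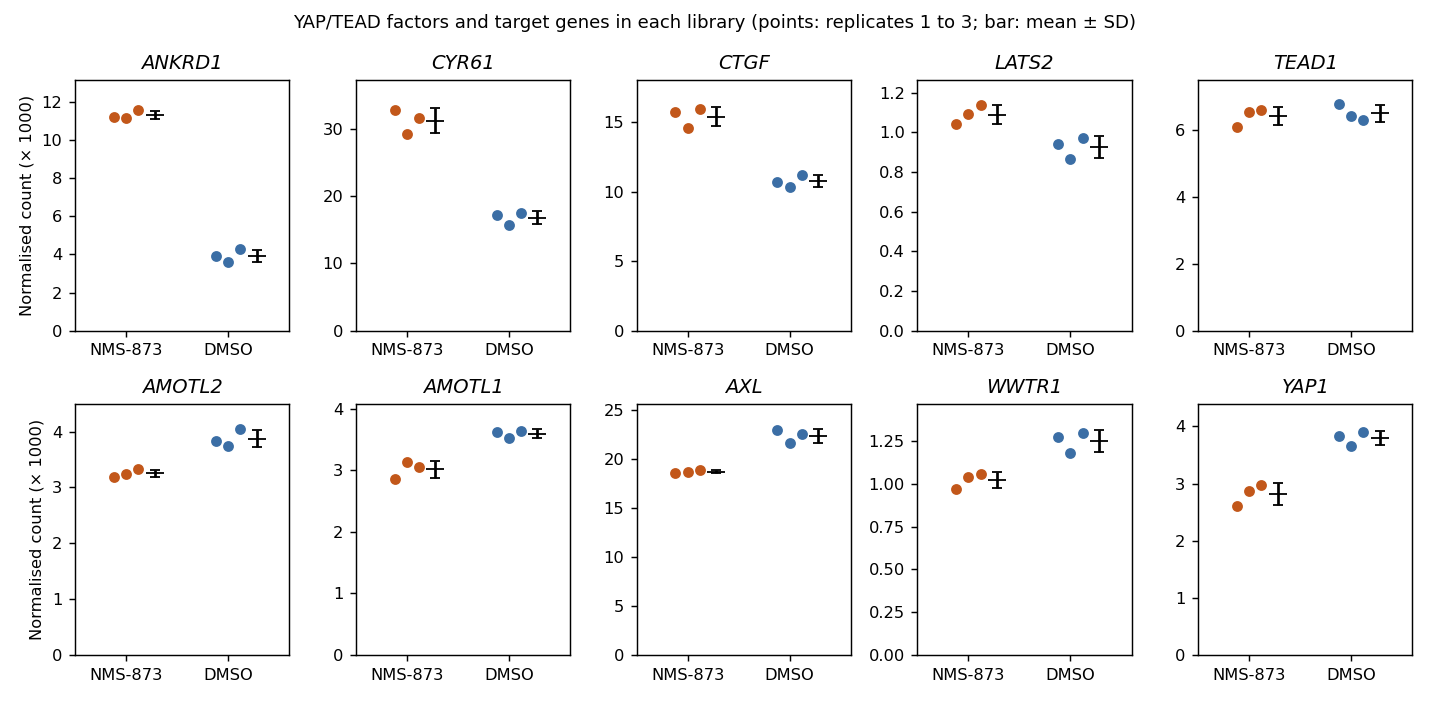
Normalised counts (vertical axis from 0, in units of 1000) of each gene in the 3 NMS-873 and the 3 DMSO libraries, with the mean and SD beside the points. The libraries of the treatments are separate for every gene except TEAD1; ANKRD1 shows the largest fold difference, with 11167 to 11586 normalised counts with NMS-873 and 3629 to 4273 with DMSO.

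Among the coactivators, YAP1 (ENSG00000137693.9; chromosome 11, 101981192 to 102104154, plus strand, hg19) had 2606, 2868 and 2984 normalised counts in NMS-873 libraries, against 3838, 3659 and 3904 in DMSO libraries. Every NMS-873 library lay below every DMSO library, and the lowest was replicate 1. The mean was 2819 ± 193 with NMS-873 and 3800.2 ± 127 with DMSO (SD, n = 3 each, as below), a 1.35-fold fall (log2 fold change -0.43, SE 0.0541, limma adjusted p = 7.28e-13). WWTR1 (ENSG00000018408.10; chromosome 3, 149235022 to 149454501, minus strand), which encodes TAZ, had 967, 1039.5 and 1059 normalised counts with NMS-873, against 1276, 1179 and 1299.96 with DMSO. The groups were again separate, with means of 1022 ± 48.3 with NMS-873 and 1252 ± 64.1 with DMSO, a 1.22-fold fall (log2 fold change -0.29, SE 0.0592, limma adjusted p = 8.35e-06). Scaled to the genes, the log2 fold change of WWTR1 was -0.19 (adjusted p = 6.59e-04) and that of YAP1 -0.33. Per length, YAP1 was the more abundant of the pair, at 20.5 ± 1.40 FPKM with NMS-873 and 27.6 ± 0.922 FPKM with DMSO, while WWTR1 was at 5.56 ± 0.263 FPKM with NMS-873 and 6.81 ± 0.348 FPKM with DMSO.

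TEAD1 (ENSG00000187079.10; chromosome 11, 12695969 to 12966298, plus strand), the DNA-binding partner in the set, had 6094, 6537 and 6603 normalised counts with NMS-873, against 6781, 6408 and 6291 with DMSO. The groups overlapped, and replicate 1 of NMS-873 was the lowest library while replicate 1 of DMSO was the highest. Its log2 fold change was -0.02 (SE 0.0547, limma adjusted p = 0.802), and 0.09 when libraries were scaled to the genes (adjusted p = 0.0554), so no direction is given. Of the other TEAD genes, TEAD4 was the most abundant at 47.7 FPKM with NMS-873 and 44.3 FPKM with DMSO. TEAD4, TEAD2 and TEAD3 were at log2 fold changes of 0.11, 0.14 and -0.01 and did not pass (limma adjusted p = 0.0995, 0.072 and 0.888). With gene-based factors TEAD4 and TEAD2 passed, at 0.21 and 0.25.

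VGLL proteins share the TEAD surface that YAP and TAZ bind. VGLL4, known as a repressor that competes with YAP, was at 529 ± 49.7 normalised counts with NMS-873 and 622 ± 29.6 with DMSO, a log2 fold change of -0.23 (limma adjusted p = 0.00252). VGLL2 was at 79.4 ± 1.19 normalised counts with NMS-873 and 103 ± 21.5 with DMSO, a log2 fold change of -0.35 (limma adjusted p = 0.0243). Neither passed with gene-based factors (adjusted p = 0.0672 and 0.156). VGLL3 did not pass, at 0.07, but with gene-based factors it did, at 0.17 (limma adjusted p = 9.53e-04). VGLL1 was at 0 in every library. Over the 6 tested TEAD and VGLL genes outside the set, 2 were thus called lower, a share like the 33.0% of all genes tested, and 4 did not pass. With gene-based factors 3 were higher and 3 did not pass, with equal totals or without DMSO replicate 3 there were 2 higher and 2 lower calls, and after quantile normalisation or without NMS-873 replicate 1 there were 2 higher and 1 lower. The lower calls numbered 1 without NMS-873 replicate 2 or DMSO replicate 1, without a count limit or on log2(FPKM + 0.1), and neither passed without the variance trend.

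The secreted targets rose. CYR61 (ENSG00000142871.11; chromosome 1, 86046444 to 86049645, plus strand), a matricellular protein, had 32792, 29230.2 and 31575 normalised counts with NMS-873, against 17141, 15718 and 17499.8 with DMSO. Its lowest NMS-873 library was far above its highest DMSO library, and the means were 31199 ± 1810.3 with NMS-873 and 16786 ± 942 with DMSO, a 1.86-fold rise (log2 fold change 0.89, SE 0.0637, limma adjusted p = 8.37e-32). CTGF (ENSG00000118523.5; chromosome 6, 132269316 to 132272513, minus strand), its relative in the CCN family, had 15693, 14586 and 15923.5 normalised counts with NMS-873, against 10713.5, 10329 and 11224 with DMSO. The groups were separate, with means of 15401 ± 715 with NMS-873 and 10756 ± 449 with DMSO, a 1.43-fold rise (log2 fold change 0.52, SE 0.0584, limma adjusted p = 2.62e-15). In both genes replicate 2 was the lowest library of its treatment.

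The other CCN genes were low. NOV (CCN3) was at 312 ± 44.2 normalised counts with NMS-873 and 287 ± 11.9 with DMSO and did not pass (log2 fold change 0.11, limma adjusted p = 0.287); without NMS-873 replicate 3 it did, upward. WISP1 (CCN4) was at 36.5 ± 4.53 normalised counts with NMS-873 and 63.6 ± 3.02 with DMSO, a 1.73-fold fall (limma adjusted p = 4.67e-05). WISP2 was under the count limit and WISP3 was at 0 in every library.

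ANKRD1 (ENSG00000148677.6; chromosome 10, 92671853 to 92681033, minus strand), a nuclear and sarcomeric ankyrin repeat protein, changed most. It had 11242, 11167 and 11586 normalised counts with NMS-873, against 3908, 3629 and 4273 with DMSO. Every NMS-873 library was far above the highest DMSO library, and the NMS-873 libraries lay close together. The means were 11331 ± 224 with NMS-873 and 3937 ± 323 with DMSO, a 2.88-fold rise (log2 fold change 1.53, SE 0.0552, limma adjusted p = 3.09e-76), and 99.3% of the genes tested had a lower log2 fold change. The genes whose profile over the 6 libraries was nearest to it, by Euclidean distance of log2 levels centred on the DMSO mean among 12078 genes with a mean of at least 50, were NSDHL, MCF2L and CEBPB, at distances of 0.110, 0.152 and 0.184. Their log2 fold changes were 1.48, 1.52 and 1.57. These lie near that of ANKRD1 by construction, since the distance includes the difference between treatments.

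**Figure D2:**
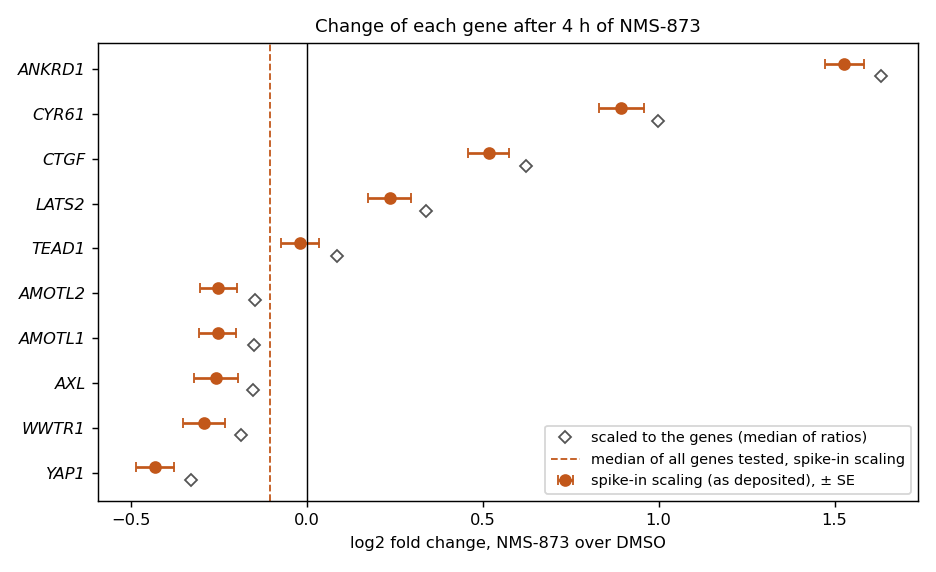
log2 fold change of NMS-873 over DMSO for each gene on the deposited spike-in scale (circles, ± SE) and with libraries scaled to the genes (diamonds); the dashed line is the median of all genes tested, at -0.10. ANKRD1, CYR61, CTGF and LATS2 lie above 0 and YAP1, WWTR1, AXL, AMOTL1 and AMOTL2 below 0 on both scales, while TEAD1 changes side.

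AXL and the angiomotin-like genes went the other way. AXL (ENSG00000167601.7; chromosome 19, 41725108 to 41767671, plus strand), a receptor tyrosine kinase, had 18595, 18683 and 18921 normalised counts with NMS-873, against 22985, 21645 and 22573 with DMSO. Its groups were separate, with means of 18733 ± 169 with NMS-873 and 22401 ± 686 with DMSO, a log2 fold change of -0.26 (SE 0.0621, limma adjusted p = 1.99e-04). AMOTL2 (ENSG00000114019.10; chromosome 3, 134074716 to 134094321, minus strand), a target that also binds YAP, had 3193, 3238 and 3325 normalised counts with NMS-873, against 3822, 3750.09 and 4041 with DMSO. Its means were 3252 ± 67.1 with NMS-873 and 3871 ± 151 with DMSO, a log2 fold change of -0.25 (SE 0.0537, limma adjusted p = 2.52e-05). AMOTL1 (ENSG00000166025.13; chromosome 11, 94439597 to 94609918, plus strand), its paralogue, had 2861, 3133 and 3054 normalised counts with NMS-873, against 3622, 3514 and 3644 with DMSO. Its means were 3016 ± 140.01 with NMS-873 and 3593 ± 69.3 with DMSO, a log2 fold change of -0.25 (SE 0.0538, limma adjusted p = 2.15e-05). Set against a median of -0.10 over all genes these 3 falls were small. Scaled to the genes each was -0.15 and still passed (adjusted p = 6.22e-04 for AXL, 6.83e-04 for AMOTL2 and 8.67e-04 for AMOTL1). AMOT, the third angiomotin, fell with a log2 fold change of -0.37 (limma adjusted p = 1.44e-05).

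LATS2 (ENSG00000150457.7; chromosome 13, 21547171 to 21635686, minus strand) had 1042, 1089 and 1136 normalised counts with NMS-873, against 939.9, 863 and 972 with DMSO. The lowest NMS-873 library was above the highest DMSO library, with means of 1089 ± 47.0 with NMS-873 and 925 ± 56.0 with DMSO, a 1.18-fold rise (log2 fold change 0.24, SE 0.0604, limma adjusted p = 4.90e-04). Its paralogue LATS1 had 1232, 1285 and 1349 normalised counts with NMS-873, against 1151, 1104 and 1181 with DMSO, also a rise (log2 fold change 0.17, limma adjusted p = 0.0106).

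Without NMS-873 replicate 1, the log2 fold changes were 1.53 for ANKRD1, 0.86 for CYR61, 0.50 for CTGF and 0.27 for LATS2, and -0.38 for YAP1, -0.25 for WWTR1, -0.25 for AXL, -0.24 for AMOTL2 and -0.22 for AMOTL1. These 9 genes passed without it, and TEAD1 did not, at 0.02. In the authors' deposited table, 4 of the genes had a positive and 5 a negative log2 fold change with an adjusted p under 0.05, and 1, TEAD1, was not called.

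Ranked per length, the order of the 10 genes differed between the treatments. With NMS-873 it ran CYR61 (582 ± 33.7 FPKM), CTGF (301 ± 14.0), ANKRD1 (262 ± 5.17), AXL (166 ± 1.496), TEAD1 (27.1 ± 1.17), AMOTL2 (24.9 ± 0.513), YAP1 (20.5 ± 1.40), AMOTL1 (13.8 ± 0.638), LATS2 (8.68 ± 0.375) and WWTR1 (5.56 ± 0.263), and no neighbours in that order overlapped between libraries. With DMSO it ran CYR61 (313 ± 17.6 FPKM), CTGF (210 ± 8.79), AXL (199 ± 6.09), ANKRD1 (91.0 ± 7.46), AMOTL2 (29.6 ± 1.157), YAP1 (27.6 ± 0.922), TEAD1 (27.5 ± 1.08), AMOTL1 (16.4 ± 0.316), LATS2 (7.38 ± 0.447) and WWTR1 (6.81 ± 0.348). Among neighbours in the DMSO order, CTGF overlapped AXL, YAP1 overlapped TEAD1 and LATS2 overlapped WWTR1, and the others did not overlap. ANKRD1 thus stood below AXL in each DMSO library and above it in each NMS-873 library.

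A ratio of related genes inside a library does not depend on the scaling between libraries. CTGF per CYR61 was 0.502, 0.524 and 0.529 in NMS-873 libraries and 0.656, 0.690 and 0.673 in DMSO libraries, with no overlap and a log2 difference of -0.38, which reflects the larger rise of CYR61. YAP1 per WWTR1 was 3.6, 3.69 and 3.77 with NMS-873 and 4.02, 4.15 and 4.01 with DMSO, a log2 difference of -0.14 with no overlap. LATS2 per LATS1 was 1.273, 1.277 and 1.268 with NMS-873 and 1.23, 1.18 and 1.24 with DMSO, a log2 difference of 0.07 with no overlap. AMOTL1 per AMOTL2 was 0.534, 0.577 and 0.548 with NMS-873 and 0.565, 0.559 and 0.538 with DMSO, and the groups overlapped. A two-sided exact permutation test over 6 libraries cannot go below p = 0.1, which the first 3 ratios reached (0.133 adjusted over the 4 ratios), while the last gave p = 1.0.

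**Figure D3:**
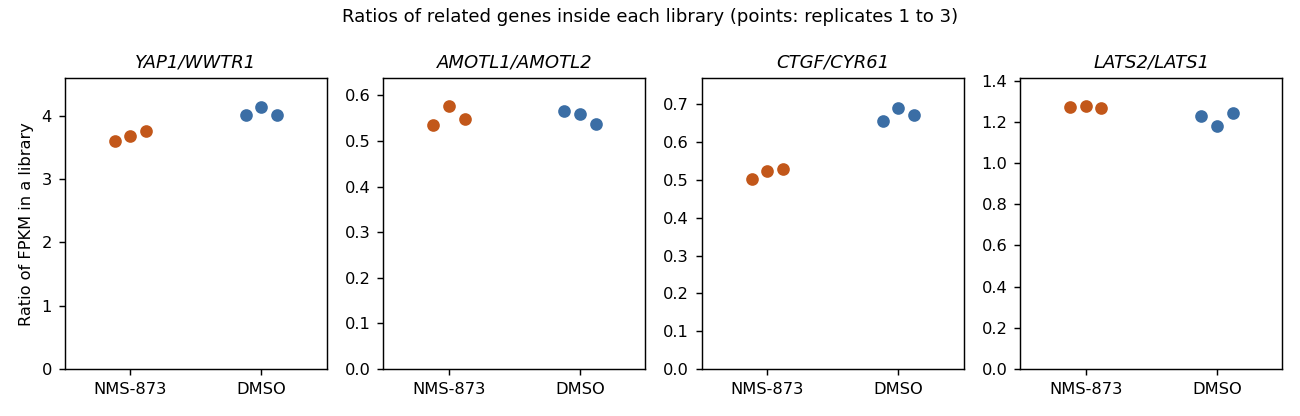
Ratio of FPKM of related genes inside each library (vertical axis from 0), NMS-873 left and DMSO right, 3 libraries each. CTGF per CYR61 lies at 0.502 to 0.529 with NMS-873, below the 0.656 to 0.690 of DMSO, and AMOTL1 per AMOTL2 overlaps between the treatments.

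Upstream of YAP, the kinases and scaffolds of the Hippo pathway moved both ways. Of 32 tested genes 8 were called higher and 6 lower, where 14.9% and 33.0% of all genes tested were, and the median log2 fold change was 0.02, against -0.10 for all genes. As a share, the 14 calls in either direction are close to the 47.9% of all genes. AJUBA, a LIM protein that holds LATS kinases in check, fell 1.74-fold, to 1820.3 ± 19.4 normalised counts with NMS-873, against 3170.3 ± 167 with DMSO (limma adjusted p = 5.03e-34). NF2 (merlin), an activator of the pathway, fell 1.29-fold (limma adjusted p = 1.18e-09). CSNK1E, which acts on YAP after LATS, rose 1.30-fold (limma adjusted p = 4.01e-10). The MST kinase genes STK3 and STK4 and their partner SAV1 were called higher, with log2 fold changes of 0.20, 0.15 and 0.19 (picked out once their values were known). MOB1A and MOB1B, of the same list, did not pass, at -0.03 and 0.05 (limma adjusted p = 0.641 and 0.543). SAV1 passed although its groups overlapped. The higher calls numbered 18 with gene-based factors, 4 without NMS-873 replicate 3 or DMSO replicate 2, 5 on log2(FPKM + 0.1) and 3 without the variance trend, and the lower calls lay between 6 and 8 in all the fits run on this list.

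A published YAP/TAZ target signature adds 16 genes to the targets above, of which 14 were tested. Of these 3 were called higher and 6 lower, where 14.9% and 33.0% of all genes tested were, with a median of -0.08 (log2) against -0.10 for all genes. With gene-based factors 5 were higher and 5 lower. GADD45A, a growth arrest gene also induced by stress, rose 2.36-fold, to 3916 ± 231 normalised counts with NMS-873, against 1659.8 ± 97.9 with DMSO (limma adjusted p = 7.91e-61). FJX1, a secreted or Golgi protein of the Four-jointed family, fell 1.74-fold, to 778 ± 47.7 normalised counts with NMS-873, against 1356 ± 71.5 with DMSO (limma adjusted p = 2.82e-29). ARHGEF17, a guanine nucleotide exchange factor, fell 1.52-fold, and F3, tissue factor, fell 1.40-fold (limma adjusted p = 1.99e-19 and 3.04e-08). IGFBP3 and NT5E were at under 3 normalised counts in both treatments' means and were not tested.

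CTGF, CYR61 and ANKRD1 are also known to respond to SRF and its actin-regulated MRTF cofactors. Of 17 tested SRF, MRTF and actin cytoskeleton genes 4 were called higher and 3 lower, where 14.9% and 33.0% of all genes tested were, and the 7 calls in either direction are a smaller share than the 47.9% of all genes. The median was 0.00 (log2); with gene-based factors 9 were higher and 3 lower, and with quantile normalisation 4 and 5. SRF itself rose 1.47-fold, to 2588 ± 84.9 normalised counts with NMS-873, against 1762 ± 132 with DMSO (limma adjusted p = 5.60e-19). FHL2, a LIM protein, rose 1.45-fold (limma adjusted p = 3.00e-17). MKL2 (MRTF-B) fell 1.37-fold, to 890.0 ± 12.2 normalised counts with NMS-873, against 1219 ± 4.25 with DMSO, and TPM1, a tropomyosin, fell 1.30-fold (limma adjusted p = 6.83e-12 and 1.31e-09).

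**Figure D4:**
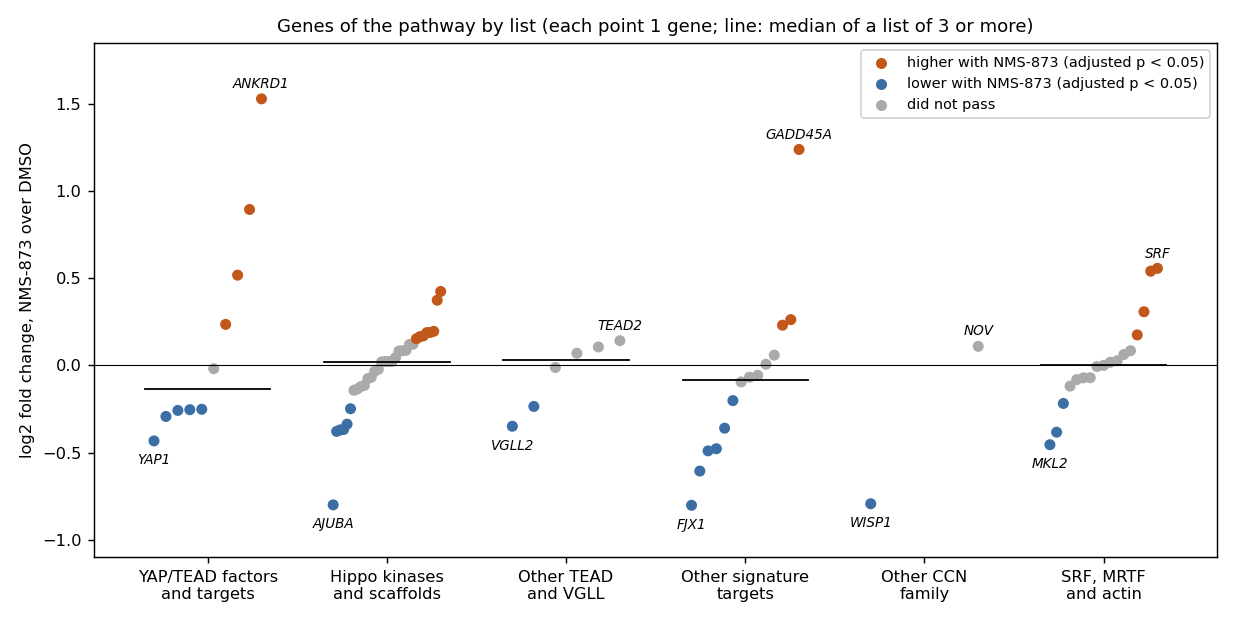
log2 fold change of NMS-873 over DMSO for every tested gene of the YAP/TEAD set and of 5 lists of related genes; colours give the call, and lines the median of lists of 3 or more genes. The YAP/TEAD set runs between -0.43 for YAP1 and 1.53 for ANKRD1, and calls in both directions occur in the set and in the lists of kinases and scaffolds, signature targets and SRF genes.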

How the data were processed

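The 6 RNA-seq libraries share 1 table (57912 rows). Its columns per sample are FPKM as deposited, a unit read from the values, since the header gives only sample names. The table itself is named as normalised counts, so this reading departs from its name. The table also holds each gene's mean normalised count (a signal, per the file headers), and the log2 fold change and adjusted p-value of the authors' own comparison, per the file headers. The submitters' processing notes name hg19 as build, and featureCounts 1.5.1 and DESeq2 1.16.1 among the tools. Which aligner was used, and whether strand entered the counting, are not given in the sources used here. Per the labels' protocols a stranded kit was used.

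Normalised counts were rebuilt by multiplying each gene's FPKM by the ratio of its mean normalised count to its mean FPKM; multiplied by each library's implied factor, 100% came within 0.001 of whole reads, and these factors match median-of-ratios factors computed on the 92 spike-in rows alone. No intervals from counting error are given. Genes that averaged at least 10 normalised counts entered limma 3.58.1 (R 4.3.3) as log2(normalised count + 1), which slightly understates changes of low genes, with a treatment term alone, a variance trend on intensity, two-sided tests and Benjamini-Hochberg adjustment over all 14889 genes. The design assumed normalised counts, and limma was kept for the rebuilt ones. The prior variance had 250.8 degrees of freedom, so the error of each gene came largely from other genes at its level. The method was run on simulated data in which few genes changed and every gene had the same spread beyond counting error. These data are less simple than that. Members and lists were chosen with earlier results of these data known, and lists received no test of their own. A symbol on several rows was represented by its row of larger mean; of the listed genes only PECAM1 had no row matched here. Beyond the 10 genes and LATS1, the tested TEAD, VGLL and CCN genes, and in other lists up to 4 genes with the lowest adjusted p past the threshold, and 3 genes nearest to the one with the largest change were named; AMOT and others were named after their values were seen. Some items that these rules select are not reported here. Alternatives changed scaling, pseudocount, count limit, variance trend, unit, test, replicate block and libraries.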

Additional observations from a re-analysis of the deposited data

How the results depend on the processing

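The 9 genes called in the YAP/TEAD set kept their call and direction under all 16 alternatives: scaling to the genes, equal totals, quantile normalisation, a pseudocount of 5, no count limit, a limit of 50, no variance trend, log2(FPKM + 0.1), voom on rebuilt reads, the replicate block and leaving out each library. The highest adjusted p of a called gene was 0.0349 (LATS2), and for ANKRD1 it was 6.3e-05. TEAD1 never passed, and its log2 fold change turned to 0.0857 when libraries were scaled to the genes. It lay between -0.0409 and 0.0176 when 1 library was left out, and was positive without NMS-873 replicate 1 or DMSO replicate 1. These were the lowest and the highest library of TEAD1, so leaving out either raises its log2 fold change. Why they stood apart was not tested. The log2 difference of AMOTL1 per AMOTL2 was 0.00 with all libraries and lay between -0.0336 and 0.0218 when 1 was left out, positive without NMS-873 replicate 1 or 3 or DMSO replicate 1 or 2. The other ratios kept their direction. Over all genes, the calls moved to 3760 higher and 3108 lower with scaling to the genes, by construction centred on the median gene. Deviations from the treatment means correlated weakly between same-numbered libraries (0.0394, -0.0254 and 0.0425). Differently numbered libraries gave -0.0716 to 0.0350. With 3 libraries per treatment these values cannot decide whether the numbers pair libraries, and the main fit assumed no pairing. With the replicate block 2352 genes were called higher and 5255 lower, against 2217 and 4910 in the main fit. In the set, 4 and 5 were called with the block. Counting depth does not limit these genes, each with 863 or more normalised counts in every library, but 3 libraries per treatment limit the precision.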
